A study of Rattus norvegicus with 8 samples.

Results

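Endothelial identity genes and the genes of the angiopoietin-TIE system were followed in rat hearts exposed to doxorubicin. The 10 genes chosen were Tie1, Tek, Angpt1, Angpt2, Kdr, Flt1, Pecam1, Cdh5, Esam and Vwf, and every probe set annotated to 1 of these symbols alone was taken. This gave 12 probe sets for 9 genes, of 31042 probe sets and 14217 genes tested in all. Cdh5, which encodes VE-cadherin, was not analysed here. The doxorubicin group held 4 hearts and the control group 4 hearts, all excised from male Wistar rats of about 300 g and perfused for 2 h on a Langendorff apparatus without recirculation, which feeds the coronary vessels through the aorta. The perfusate of the doxorubicin hearts carried 2 µM of the drug, an anthracycline that intercalates into DNA and poisons topoisomerase II, and that of the control hearts carried none. The sample titles number the hearts of each group as biological replicates.

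Endothelial cells line the coronary vessels and are the first cells that a drug in the perfusate meets. Angpt1, made mainly by mural and other supporting cells, activates the receptor Tek (TIE2) and holds the vessel quiescent, while Angpt2, stored and released by endothelium, acts on the same receptor in a way that depends on context. Tie1 is a related receptor that joins Tek in a complex and shapes its signal. Kdr (VEGFR-2) carries most of the VEGF signal, Flt1 (VEGFR-1) binds VEGF tightly and can act as a decoy, Pecam1 and Esam are junctional adhesion molecules, and Vwf is the clotting protein that endothelium and platelets store.

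Of the 12 probe sets, 1 changed. Tie1 was 1.27-fold higher in doxorubicin hearts, and the other 11 probe sets did not pass the test in either direction. Levels are log2 of the deposited values, and differences are doxorubicin minus control with limma's standard error (SE). A probe set was called at a Benjamini-Hochberg adjusted p under 0.05 over all 31042 probe sets, a threshold that 2.21% of them met (0.689% higher and 1.52% lower). With 12 probe sets, 1 call is the smallest count above 0 that could be seen. Differences of the 12 ran from -0.22 to 0.34, 6 of them positive and 6 negative, with a median of 0.06 against -0.0019 over all probe sets. At an unadjusted p under 0.05 the count was also 1 of 12, against 13.6% of all probe sets. None of the 12 intervals of the difference (95% confidence) reached 2-fold, and 1 reached 1.5-fold. In whole hearts, fewer cells of a type and less RNA per cell cannot be told apart.

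**Figure D1:**
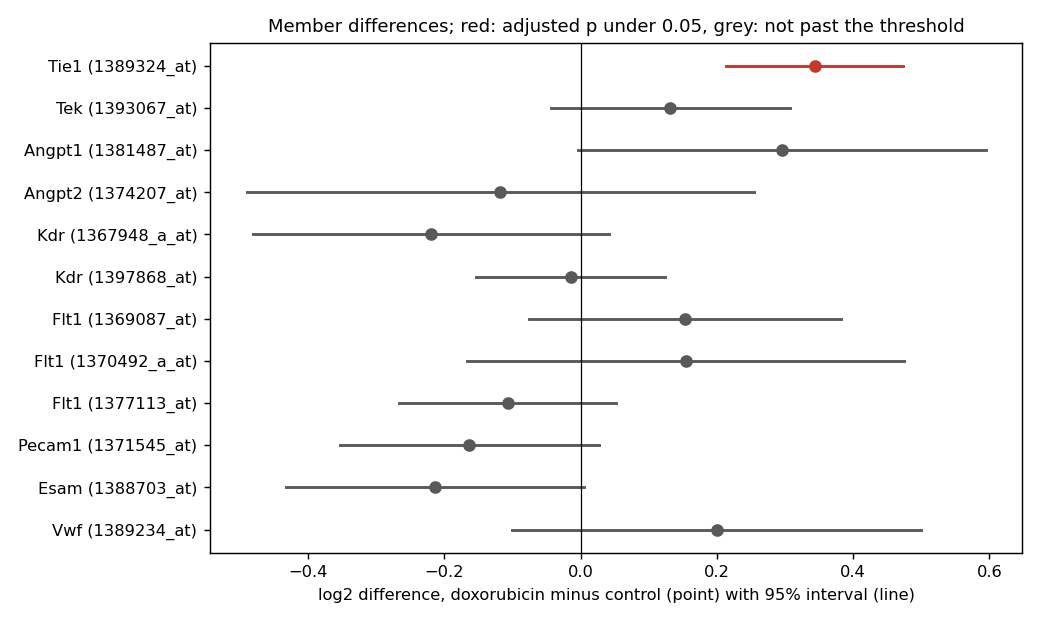
Log2 difference (doxorubicin minus control, x axis) of each of the 12 probe sets, with its 95% interval from limma as a line. The Tie1 interval lies above 0, and the other 11 intervals, which run from 0.712-fold to 1.51-fold between their outermost ends, include 0.

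The hearts carried their tissue's markers, with the cardiomyocyte myosin gene Myh6 at 14.08 to 14.14 log2 in doxorubicin hearts and 13.88 to 14.11 log2 in control hearts. Array medians were 29.9 to 30.5 on the linear scale for doxorubicin and 30.1 to 31.0 for control. Correlations over all probe sets, which are not independent replicates, were 0.988 to 0.996 within groups and 0.985 to 0.993 between them. The 18 hybridization control probe sets, which read transcripts spiked into the labelled sample, averaged 9.97 to 10.1 log2 on the doxorubicin arrays and 10.2 to 10.6 log2 on the control arrays. This level did not overlap between the groups (difference -0.30, two-sided exact permutation p = 0.0286, the smallest possible with 4 against 4). Its part in the results was not tested beyond fits with this level as a covariate. Those fits are given where they moved a difference by over 1.5 times or ended a call. Because the level parts the groups, such a fit can hardly separate it from the drug, and a call lost there decides nothing. Control heart 1 was the lowest of all 8 hearts for Tie1, Tek, Angpt1, Flt1 by its brightest probe set and Vwf, and the highest of all 8 for Pecam1, Esam, the dim probe set of Kdr and the dimmest of Flt1. Differences without it are given where they moved by over 1.5 times.

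Tie1, the receptor partner of Tek, stood at 7.20, 7.24, 7.23 and 7.07 log2 in doxorubicin hearts 1 to 4, against 6.81, 6.83, 6.83 and 6.89 log2 in control hearts 1 to 4. All 4 doxorubicin hearts lay above all 4 control hearts, and the gap between the nearest pair was 0.18, wider than the span of either group (0.17 over doxorubicin hearts and 0.08 over control hearts). The means were 7.18 ± 0.08 and 6.84 ± 0.03 log2 (SD, n = 4 each), a difference of 0.34 (SE 0.06, 95% interval 0.21 to 0.47, limma adjusted p = 0.0148). The rise was small among those called, since 176 of the 214 probe sets called higher had a larger difference and their median was 0.48. The call was not kept in every fit that left out a heart: without doxorubicin heart 1, 2 or 3 the difference was 0.34, 0.33 and 0.33 with limma adjusted p = 0.0576, 0.0535 and 0.0505, while without doxorubicin heart 4 or any 1 control heart it was called (adjusted p 0.0143 to 0.0488). When the level of the hybridization controls entered the model, the difference was 0.34 again, with adjusted p = 0.456 and 92 of all probe sets called against 687 without it. Groups did not overlap in 2 of the 12 probe sets, those of Tie1 and Angpt1, doxorubicin being higher in both, and in 8.55% of all probe sets (4.52% with doxorubicin higher).

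**Figure D2:**
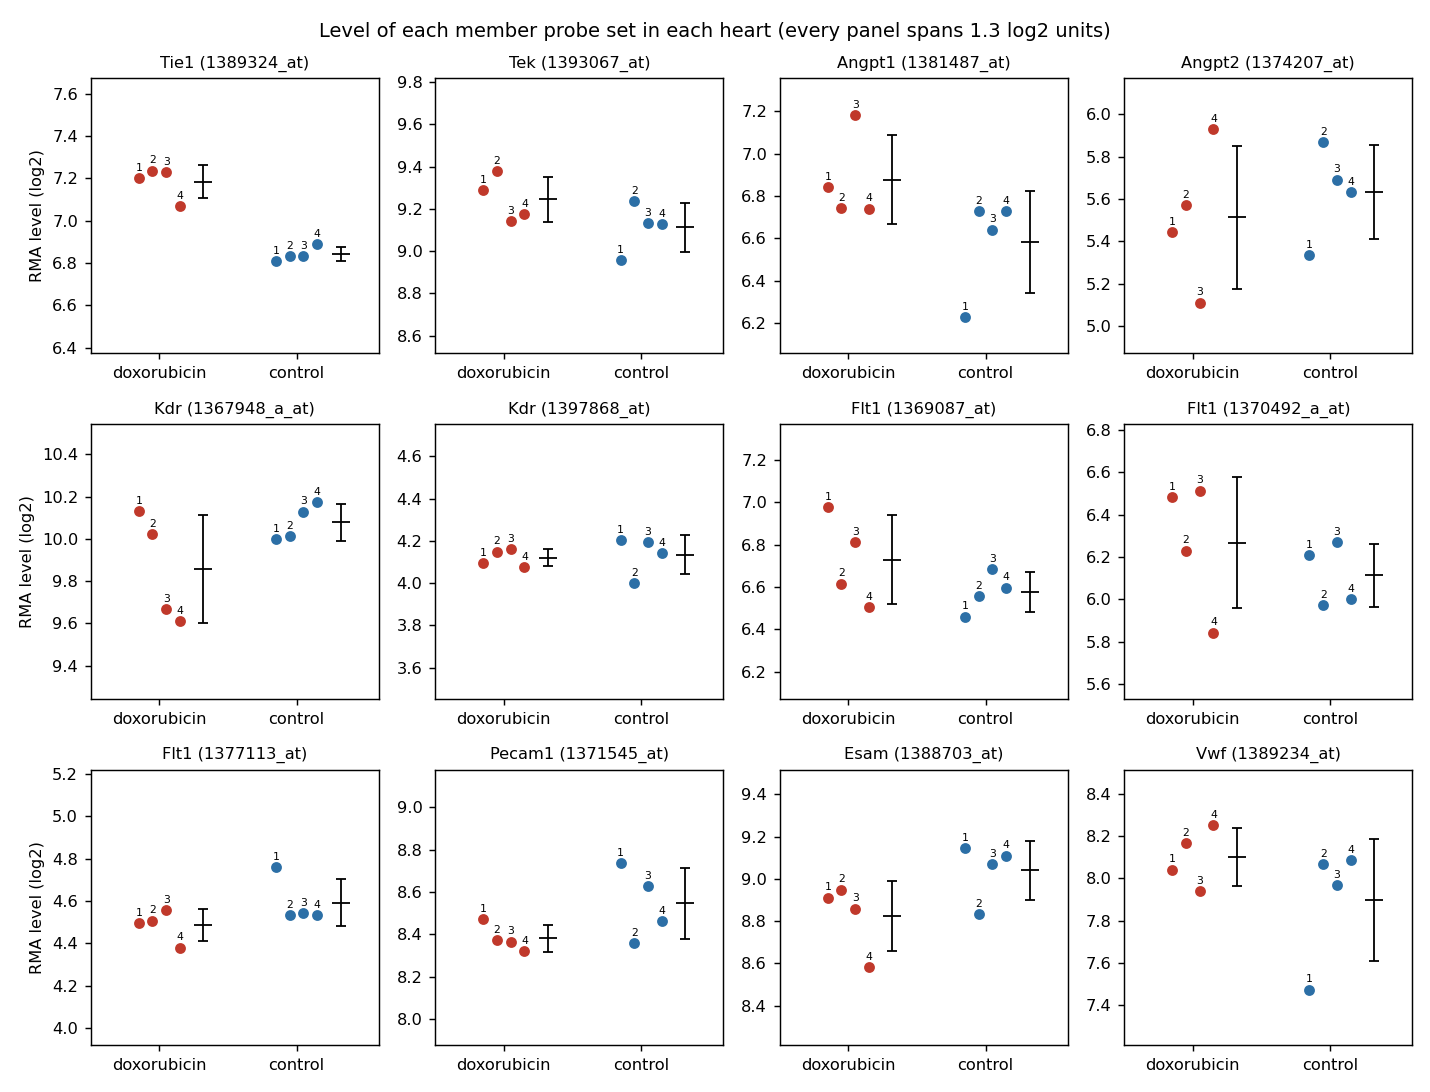
RMA level (log2, y axis) of the 12 probe sets in each heart, doxorubicin hearts in red and control hearts in blue, numbered by replicate, with the mean and SD (n = 4) as a bar beside each group. Panels share 1 span but not 1 range. Tie1 is the one panel with a wide gap between groups, and control heart 1 stands low for Angpt1 and Vwf.

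**Figure D3:**
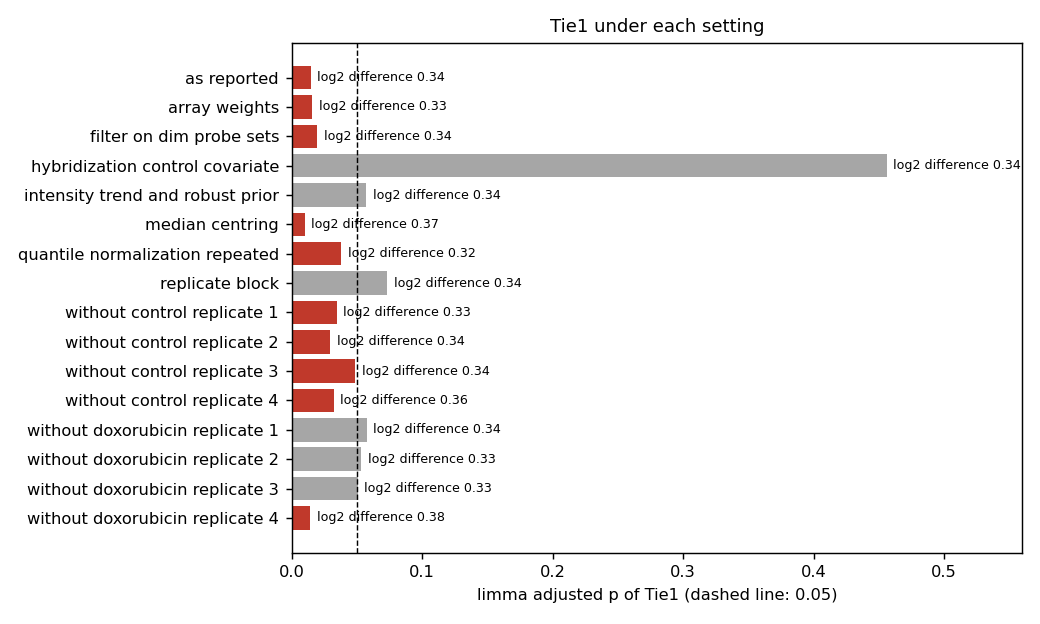
Limma adjusted p of Tie1 (x axis, from 0) under each setting, with the log2 difference written beside each bar; red bars are under 0.05. The difference stays between 0.32 and 0.38 while the adjusted p runs from 0.0101 to 0.456.

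The promoter of Tie1 is shown because it is the member that changed, as RefSeq's GRCr8 assembly gives it from 250 bases before to 50 after the annotated start. Capitals mark GGAA and its reverse complement TTCC, the core that ETS factors such as Erg and Fli1 bind in endothelial genes.
Tie1 promoter, chr5:137304932-137305231, minus strand: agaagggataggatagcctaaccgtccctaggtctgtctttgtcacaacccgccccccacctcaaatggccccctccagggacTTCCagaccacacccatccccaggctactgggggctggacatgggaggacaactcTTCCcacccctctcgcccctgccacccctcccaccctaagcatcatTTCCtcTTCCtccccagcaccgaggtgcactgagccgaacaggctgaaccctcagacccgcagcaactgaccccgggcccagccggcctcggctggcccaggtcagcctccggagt
It holds 4 matches to GGAA on either strand, and 46.8% of 33469 rat promoters of this length hold at least 4. Neither GAGACC, a motif described for genes that respond to flow, nor TATAAA was found on either strand of this window, and 16.5% and 14.2% of all promoters hold them. A match describes the letters only.

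Tek, the angiopoietin receptor, did not pass. It read 9.29, 9.38, 9.14 and 9.17 log2 in the doxorubicin hearts, against 8.96, 9.24, 9.13 and 9.13 log2 in the control hearts, and the groups overlapped. The means were 9.24 ± 0.11 and 9.11 ± 0.12 log2 (SD, n = 4 each), a difference of 0.13 (SE 0.08, 95% interval -0.04 to 0.31, limma adjusted p = 0.539). Without control heart 1, the lowest, the difference was 0.08, and without doxorubicin heart 2, the highest, it was 0.09.

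Angpt1, the activating ligand of Tek, had 6.84, 6.74, 7.18 and 6.74 log2 in doxorubicin hearts, against 6.23, 6.73, 6.64 and 6.73 log2 in control hearts. The groups did not overlap, but 2 doxorubicin and 2 control hearts lay almost level, and doxorubicin heart 3 and control heart 1 stood away from the rest. The difference of 0.29 (SE 0.13, 95% interval -0.0045 to 0.59, n = 4 each) was not called (limma adjusted p = 0.378), and it was 0.18 without control heart 1 and 0.19 without doxorubicin heart 3. Angpt2, the context-dependent ligand, read 5.44, 5.57, 5.11 and 5.93 log2 in doxorubicin hearts and 5.33, 5.87, 5.69 and 5.63 log2 in control hearts. Both the lowest and the highest of the 8 were doxorubicin hearts, and the spread among them (SD 0.34) was the widest of any group over the 12 probe sets. Its difference of -0.12 (SE 0.17, 95% interval -0.49 to 0.25, limma adjusted p = 0.85) turned to 0.02 without doxorubicin heart 3. It was -0.04 without control heart 2, -0.22 without control heart 1 and -0.26 without doxorubicin heart 4, so 4 of the 8 hearts each moved it by over 1.5 times.

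Kdr, the main VEGF receptor, has a bright and a dim probe set. The bright one read 10.13, 10.02, 9.67 and 9.61 log2 in doxorubicin hearts, against 9.999, 10.012, 10.13 and 10.17 log2 in control hearts. Doxorubicin hearts 3 and 4 lay below every control heart, and doxorubicin hearts 1 and 2 lay among them, so the SD was 0.26 over doxorubicin hearts and 0.09 over control hearts. The difference was -0.22 (SE 0.12, 95% interval -0.48 to 0.04, n = 4 each, limma adjusted p = 0.47). It was -0.14 without doxorubicin heart 4 and -0.04 with the hybridization control covariate. The dim probe set, with a mean of 4.13 log2, lay under 4.16 log2, the level below which 25% of all probe sets fall, and spanned 4.0 to 4.20 log2 over all hearts with a difference of -0.01 (SE 0.06). The deposited values carry no detection calls, so whether it read Kdr above background was not determined.

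Flt1, the decoy-capable VEGF receptor, was read by 3 probe sets. The brightest measured 6.98, 6.62, 6.81 and 6.50 log2 in doxorubicin hearts, against 6.46, 6.56, 6.69 and 6.60 log2 in control hearts, a difference of 0.15 (SE 0.10, 95% interval -0.08 to 0.38, limma adjusted p = 0.6). The next had 6.48, 6.23, 6.51 and 5.84 log2 in doxorubicin hearts and 6.21, 5.97, 6.27 and 5.999 log2 in control hearts, also a difference of 0.15 (SE 0.14). In both of them 2 doxorubicin hearts, 1 and 3, lay above every control heart and doxorubicin heart 4 was the lowest of its group. Without doxorubicin heart 1 the differences were 0.07 and 0.08, and the second was 0.07 without doxorubicin heart 3 and 0.30 without doxorubicin heart 4. With the hybridization control covariate they were 0.36 and 0.43, neither of them called. The dimmest, at a mean of 4.54 log2, had the opposite sign (-0.11, SE 0.07), and control heart 1 at 4.76 log2 stood above the other 7 hearts (4.38 to 4.56 log2). Without that heart the difference was -0.05. Transcript forms of Flt1 were not assigned to probe sets, because the sources used here do not map them.

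The promoters of Kdr and Flt1 are given for comparison with that of Tie1, in the same window and marking. Among the members, promoter sequences were available here for Tie1, Kdr and Flt1 alone. The within-heart difference of Flt1 and Kdr was called by the brightest probe sets, as described further on. That of Tie1 and Tek was called too.
Kdr promoter, chr14:32571813-32572112, plus strand: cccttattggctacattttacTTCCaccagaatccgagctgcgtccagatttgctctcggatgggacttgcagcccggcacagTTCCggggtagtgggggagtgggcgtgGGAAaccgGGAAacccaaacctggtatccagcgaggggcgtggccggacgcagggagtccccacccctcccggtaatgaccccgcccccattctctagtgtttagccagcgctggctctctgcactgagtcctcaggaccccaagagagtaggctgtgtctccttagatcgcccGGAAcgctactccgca
Flt1 promoter, chr12:12333180-12333479, plus strand: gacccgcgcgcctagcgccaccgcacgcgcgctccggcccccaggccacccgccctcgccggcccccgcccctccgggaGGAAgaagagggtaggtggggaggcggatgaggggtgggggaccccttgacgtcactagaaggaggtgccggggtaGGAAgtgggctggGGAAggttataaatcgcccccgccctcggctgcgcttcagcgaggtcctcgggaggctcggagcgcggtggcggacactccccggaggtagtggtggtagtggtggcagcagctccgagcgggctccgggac
Kdr holds 5 matches to GGAA and Flt1 3, and at least as many are held by 29.2% and 67.0% of all promoters, whose median is 3. GAGACC was not found in either window. TATAAA was found once in that of Flt1 and not in that of Kdr, and no match overlapped a match to another of these motifs.

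Both junctional adhesion genes stood lower without passing. Pecam1, which encodes CD31, had 8.47, 8.37, 8.37 and 8.32 log2 in doxorubicin hearts, against 8.74, 8.36, 8.63 and 8.46 log2 in control hearts. Control hearts 1 and 3 lay above every doxorubicin heart and control hearts 2 and 4 among them, and the difference was -0.16 (SE 0.08, 95% interval -0.35 to 0.03, limma adjusted p = 0.458). It was -0.10 without control heart 1 and -0.0057 with the hybridization control covariate. Esam had 8.91, 8.95, 8.86 and 8.58 log2 in doxorubicin hearts and 9.15, 8.83, 9.07 and 9.11 log2 in control hearts. Here control heart 2 was the exception, below 3 of the 4 doxorubicin hearts, and the difference was -0.21 (SE 0.10, 95% interval -0.43 to 0.0054, limma adjusted p = 0.383). It was -0.13 without doxorubicin heart 4 and -0.11 with the covariate.

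Vwf read 8.04, 8.17, 7.94 and 8.25 log2 in doxorubicin hearts, against 7.47, 8.07, 7.97 and 8.09 log2 in control hearts. Apart from control heart 1 the groups lay in the same range, and the difference of 0.20 (SE 0.13, 95% interval -0.10 to 0.50, limma adjusted p = 0.601) was 0.06 without that heart. Platelets also store this protein, and of 7 platelet and megakaryocyte markers measured none was called (without adjustment 1 was higher and none lower), with a summed linear level of 233 to 270 in doxorubicin hearts and 214 to 298 in control hearts. Over all genes 2.97% were called, so none among 7 says little of platelets. Apart from Pf4, at a mean of 6.67 log2, the platelet markers had means of 4.30 to 5.04 log2. Whether they read above background was not determined, and a platelet part in Vwf was not tested.

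Pairs of members were then compared within each heart, which cancels a shift shared by both genes of a pair. The quantity is the log2 level of one gene minus that of its partner, each by its brightest probe set, and it bears on unequal change alone, since levels of different probe sets are not comparable. For Flt1 minus Kdr it was -3.15, -3.41, -2.85 and -3.11 in doxorubicin hearts and -3.54, -3.45, -3.44 and -3.58 in control hearts. All 4 doxorubicin hearts were higher, with doxorubicin heart 2 nearest to the control hearts. The means differed by 0.37 (two-sided exact permutation p = 0.0286 over 70 splits, the smallest possible, adjusted p = 0.0429 over 3 pairs). Of the 6 combinations of Flt1 and Kdr probe sets, this was the only one under an unadjusted 0.05. The second Flt1 probe set against the bright Kdr one gave the same size (0.37, exact permutation p = 0.0571), and the other 4 ran from -0.09 to 0.17.

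Tie1 minus Tek was -2.09, -2.14, -1.91 and -2.10 in doxorubicin hearts and -2.15, -2.40, -2.30 and -2.24 in control hearts. The groups parted by less than 0.01 between doxorubicin heart 2 and control heart 1, and the means differed by 0.21 (exact permutation p = 0.0286, adjusted p = 0.0429 over 3 pairs). Angpt2 minus Angpt1, the balance of the opposing TIE ligands, was -1.40, -1.17, -2.07 and -0.81 in doxorubicin hearts and -0.89, -0.86, -0.95 and -1.10 in control hearts. The doxorubicin hearts spread on both sides of the control hearts, and the difference of -0.41 did not pass (exact permutation p = 0.2). Without doxorubicin heart 4 it was -0.60 (exact permutation, adjusted p = 0.0429 over 3 pairs). Both calls for the receptor pairs were lost when any 1 heart was left out, save that of Flt1 minus Kdr without doxorubicin heart 4 (adjusted p = 0.0429), at differences of 0.16 to 0.25 for Tie1 minus Tek and 0.28 to 0.47 for Flt1 minus Kdr. With 1 heart left out the smallest possible exact p is no lower than with all hearts. After adjustment over 3 pairs, a pair at that floor passes only where another pair reaches it too. These losses therefore say little of stability.

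**Figure D4:**
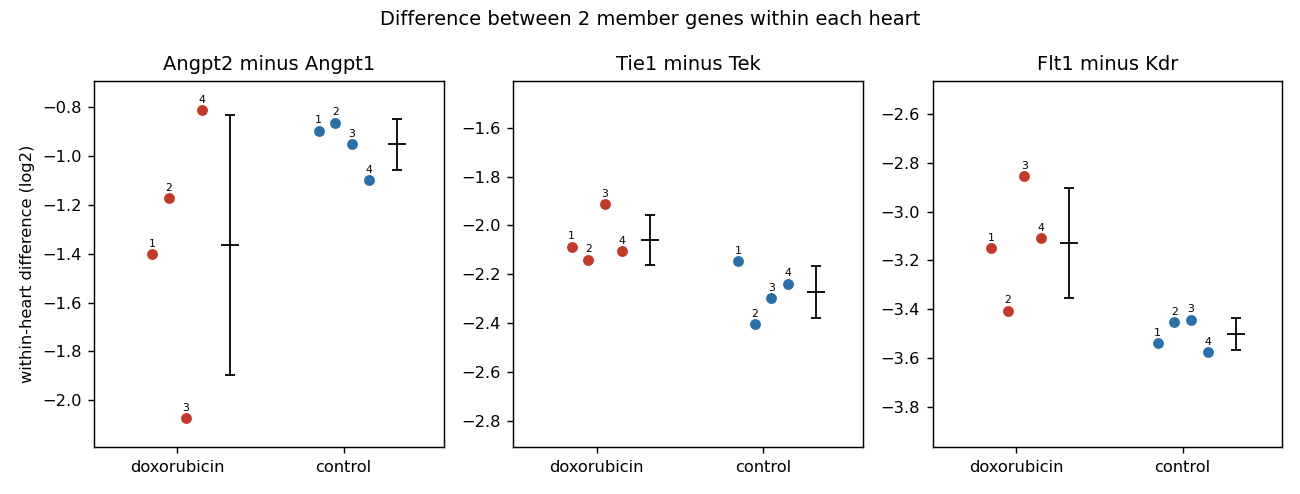
Difference between the log2 levels of 2 genes within each heart (y axis, log2), numbered by replicate, with mean and SD (n = 4) as a bar. The doxorubicin hearts (red) lie above the control hearts (blue) for Tie1 minus Tek, where the nearest values almost touch, and for Flt1 minus Kdr, and span them for Angpt2 minus Angpt1.

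Among 17143 other probe sets with 1 symbol and a mean above the dim level, those whose pattern over the 8 hearts lay nearest to that of Tie1 read Car4, a membrane-bound carbonic anhydrase, Casp9, an initiator caspase, and Bckdk, a kinase of branched-chain amino acid breakdown. Their root-mean-square distances from Tie1, after each probe set was set to its own mean, were 0.046, 0.048 and 0.049 log2, against a median of 0.21 log2 over all candidates. Their differences were 0.30, 0.26 and 0.36. These genes were picked as the nearest, so small distances and differences near that of Tie1 follow from the choice.

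The wider endothelial program was read from lists of other genes. These lists were chosen with earlier results of these data known. Their counts beside the share of all genes are therefore a description and no test of the program. Of 39 further endothelial identity genes measured, 7 fell, 1 rose and 31 did not pass. Their median difference was -0.10, against 0.0063 over all genes, of which 2.97% were called, 2.17% lower and 0.802% higher. The falls included transcription factors of the endothelial lineage. Sox18, an SRY-box factor of vessel development, had 6.73, 6.91, 5.66 and 6.57 log2 in doxorubicin hearts, against 7.86, 8.30, 8.02 and 7.81 log2 in control hearts (difference -1.53, SE 0.24, limma adjusted p = 0.00941). Its relative Sox7 had 9.0025, 9.04, 8.49 and 9.06 log2 in doxorubicin hearts and 9.75, 10.03, 10.05 and 10.26 log2 in control hearts (difference -1.13, SE 0.14, limma adjusted p = 0.003). In both genes every doxorubicin heart was below every control heart, doxorubicin heart 3 the lowest. The third relative, Sox17, stood at -0.11 (SE 0.23).

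The ETS factor Erg fell by 0.60 (SE 0.12, limma adjusted p = 0.0322), its second probe set standing at -0.47 without passing. The exchange factor Arhgef15 fell by 0.52 (SE 0.06) and the junction regulator Rasip1 by 0.47 (SE 0.09), whose 2 other probe sets stood at -0.25 and -0.02 without passing. Apln, the ligand of the apelin receptor, rose by 0.49 (SE 0.10, limma adjusted p = 0.0308), with 0.26 in its second probe set, which did not pass. The remaining falls were named after their values were seen. They were those of the ETS factor Fli1 (-0.74, SE 0.15, limma adjusted p = 0.0354) and the surface protein Cd93 (-0.34, SE 0.07, limma adjusted p = 0.0426). Of the further probe sets of Fli1, 2 were also called and 1 stood near 0. The second probe set of Cd93 stood near 0. For Fli1 and Cd93, fits that left out a heart are not given here. Without adjustment, 5 genes of the list were higher and 14 lower. Sox7, Sox18 and Arhgef15 were called without any 1 of the 8 hearts, Erg and Rasip1 lost the call without any 1 of 6 hearts (adjusted p up to 0.0965 and 0.0938) and Apln without any 1 of 4 (up to 0.107). The list's count of 8 was 3 to 5 without control heart 3 or 4 or any 1 doxorubicin heart, and 0 with the hybridization control covariate.

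In the pathway of the VEGF and TIE receptors, 1 of 27 partners measured fell, none rose and 26 were not called. Over all genes 2.97% were called, 2.17% lower, and 1 call is the smallest count above 0. The median difference of the partners was 0.02, and without adjustment 5 were higher and 2 lower. The partner that fell was the ligand gene Vegfa, at 10.71, 10.61, 10.75 and 10.30 log2 in doxorubicin hearts, against 11.36, 11.08, 10.96 and 11.32 log2 in control hearts. The groups did not overlap, and the difference was -0.59 (SE 0.12, limma adjusted p = 0.0356), called only with all hearts or without control heart 2 or 3 among the fits that left out a heart (adjusted p up to 0.104). Its second probe set stood at -0.67 and was not called. With the hybridization control covariate no partner was called.

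None of 22 flow and Notch genes was called by limma (without adjustment 1 was higher and 6 lower, median -0.11). Those with the smallest p were the Notch target Hey1 at -0.53 (SE 0.12, adjusted p = 0.0701), the stretch-gated channel Piezo1 at -0.43 (SE 0.11) and the anticoagulant receptor Thbd at 0.60 (SE 0.16, adjusted p = 0.0961), of which 1 of 2 other probe sets rose. The count of 0 was 2 with array weights, 2 without control heart 1, 2 without control heart 2 and 1 without doxorubicin heart 2. Hey1 passed in 3 of these fits (adjusted p down to 0.0205) and Thbd in 2 (down to 0.019). Of 23 junction and adhesion genes, 4 fell and none rose (without adjustment 1 was higher and 7 lower), with a median of -0.07. Over all genes 2.17% were called lower. The 4 were the leukocyte adhesion genes Sele (-2.06, SE 0.18), Selp (-0.79, SE 0.16) and Vcam1 (-0.75, SE 0.15) and the junction scaffold Afdn (-0.46, SE 0.07). The second probe set of Selp stood at -0.08 and the 2 others of Afdn at -0.29 and -0.13, none of them called. Sele and Afdn were called without any 1 heart, Selp and Vcam1 lost the call without any 1 of 6 (adjusted p up to 0.109 and 0.112), and the list's count was 2 without control heart 2, 3 or 4 or doxorubicin heart 1, 2 or 3. With the hybridization control covariate none of the 4 was called.

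Markers of other cells of the heart were read beside the members. Over all genes 2.97% were called, and 13.6% of all probe sets had an unadjusted p under 0.05. In lists this short, no call or 1 call therefore says little of a cell type. By the brightest probe set of each gene, no marker was called by limma among 14 of mural cells (3 higher and 2 lower unadjusted), 11 of cardiomyocytes (none unadjusted), 10 of fibroblasts (1 higher), 12 of leukocytes and macrophages (3 higher and 2 lower), 4 of erythrocytes (1 lower) and 7 of lymphatic endothelium (1 higher), with medians of -0.03, 0.03, 0.13, 0.18, -0.07 and 0.14. Other probe sets did pass for 2 of these genes. Both other probe sets of Abcc9, a potassium channel subunit read here in the mural list, rose, by 0.69 and 1.42. Whether mural cells were the source of that rise was not tested. The other probe set of the leukocyte marker Laptm5 also rose, by 0.48. The leukocyte count was 1 without control heart 2. Of 6 endocardial markers 1 fell, the transcription factor Nfatc1 (-0.57, SE 0.11, limma adjusted p = 0.0264). It lost the call without control heart 3 or 4 or doxorubicin heart 1 or 3 (adjusted p up to 0.0953). With the hybridization control covariate Nfatc1 was not called either. The other 5 endocardial markers stood higher without passing, and the median of this list was 0.14. Summed linear levels overlapped between the groups for mural cells (6990 to 7768 in doxorubicin hearts, 6819 to 7969 in control hearts), cardiomyocytes (121452 to 126579 and 121958 to 124195) and leukocytes (2370 to 3065 and 2191 to 2832). The mural sum was led by Des, at a mean of 11.99 log2, with Abcc9 next at 9.67 log2. Whether Des and Abcc9 were read from mural cells was not determined. The sum therefore says little of mural cells or of the dimmer mural markers. Fibroblast markers moved from heart to heart, on average by 0.51 above their own means in doxorubicin heart 4 and by 0.52 below them in control heart 1. Their part in the differences of the members was not tested, and each member's difference without control heart 1 is given where it moved by over 1.5 times, that of the dim Kdr probe set with the alternatives.

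**Figure D5:**
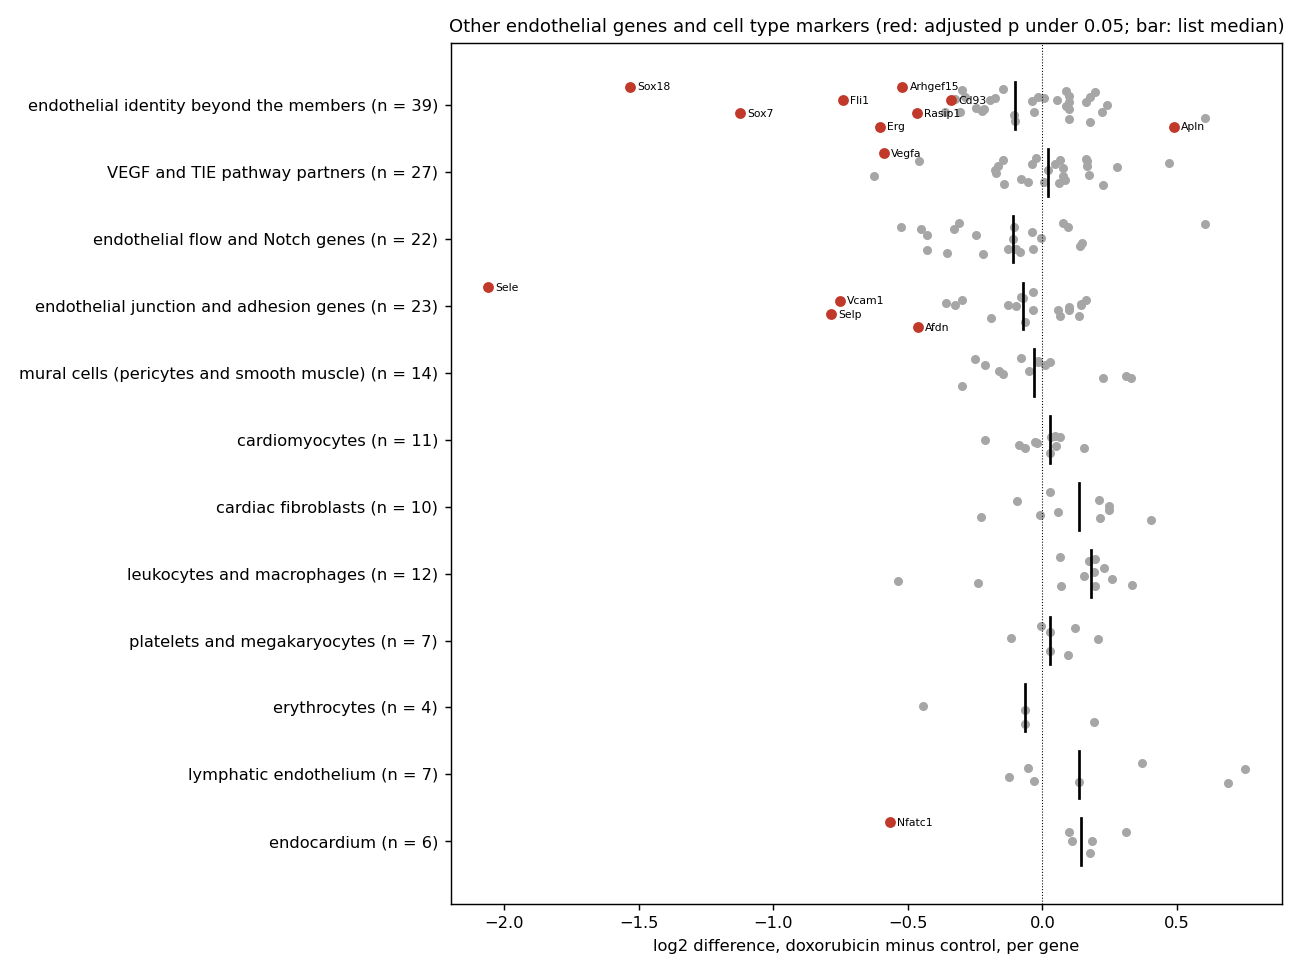
Log2 difference (doxorubicin minus control, x axis) of each gene in 12 lists by its brightest probe set, 1 row a list, with called genes in red and named, other genes in grey and the list median as a black bar. Of 171 genes, 13 were called lower and 1, Apln, higher, and the lists of mural, muscle, fibroblast and blood cells have no red point at that probe set, other probe sets of Abcc9 and Laptm5 being called.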

How the data were processed

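Total RNA of 8 hearts was hybridized as biotin-labelled cRNA to 1 Affymetrix array each, per the labels. The deposited intensity values are probe set values made by the authors with RMA, per the submitters' processing notes; the software version is not given in the sources used here. They are on a linear scale, so log2 was taken with no offset. Of 31099 probe sets, 57 AFFX controls were left out. Symbols come from the platform annotation, brought up to date by gene ID from RefSeq's GRCr8 table (20758 of 20826 single-symbol probe sets matched; 436 had several symbols and 9780 none, and none of these was named). RMA makes array distributions alike, so a shift of most transcripts would not show. The sources used here give no scan date or batch. Arrays have no read depth, and their number limits the precision.

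The 2 groups were fitted with limma 3.58.1 under R 4.3.3 (doxorubicin minus control, lmFit and eBayes, all 8 arrays, no covariate), two-sided, adjusted by Benjamini-Hochberg over 31042 probe sets. List genes were taken by their probe set with the highest mean. Within-heart differences were tested by exact permutation over 70 splits, adjusted over 3 pairs. All members were named, from each list up to 6 called genes or otherwise the 3 with the smallest p, and the 3 genes most like a called member. The members and lists were chosen with earlier results of these data known. Figures were drawn with matplotlib 3.10.9. On simulated arrays with the same 2 groups and 31042 probe sets, the fit recovered 94 of 100 changed 2-fold and 82 of 100 changed 1.5-fold, with 10 false calls. The simulated noise was independent between probe sets, with no shift shared within an array. These rates need not hold for the real arrays.

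Alternatives were centring arrays on their medians, a second round of quantile normalization, dropping dim probe sets, a trended robust prior, array weights, the replicate number as a block, the hybridization control level as a covariate, averaging a gene's probe sets, and leaving out each array. Hearts share replicate numbers across groups, but their deviations did not go together (correlations 0.0592, -0.038, -0.0298 and -0.184 over probe sets), so the main fit has no block.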

Additional observations from a re-analysis of the deposited data

Results flagged for a closer look

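In the dimmest Flt1 probe set, control heart 1 at 4.76 log2 lay far above the other 3 control hearts, whose values were nearly alike. The gap took 0.956 of the group's range; by Dixon's test at the 95% level it is a stray value. In all, 30 groups of 4 hearts were read in this way, and chance alone marks about 1 in 20. The Flt1 difference of -0.11 became -0.05 without this heart.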

How the results depend on the processing

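Tie1 kept its direction in 15 of 15 alternatives, at 0.32 to 0.38, and its call in 9. The call was lost with the hybridization control covariate (0.34, limma adjusted p = 0.456), with the trended robust prior (0.34, adjusted p = 0.0573) and with the replicate number as a block (0.34, adjusted p = 0.0732), so the count of called members was 0 in each of these. Leaving out 1 heart gave Tie1 differences of 0.33 to 0.38 and 0 to 1 called members. The cause was not tested. Of 164 alternative values for the other 11 member probe sets none passed (lowest limma adjusted p 0.159), and 5 changed sign: Angpt2 (0.016 without doxorubicin heart 3, -0.257 to 0.016 over all fits without 1 heart) and the dim Kdr probe set (0.050 with the covariate, 0.0078 with median centring, 0.0079 and 0.0050 without control heart 1 or 3, -0.060 to 0.0079 without 1 heart). All probe sets called numbered 687, against 92 with the covariate and 397 to 854 without 1 heart. List genes called numbered 14, against 0 with the covariate, 7 with the replicate block and 6 to 15 without 1 heart. Signs also changed for Alas2 (0.080 with the covariate), Hbb (-0.026 without doxorubicin heart 4) and Treml1 (-0.043 with the covariate), none of them called.

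For the within-heart pairs by the brightest probe sets, no alternative here changed a sign, though Flt1 minus Kdr by the dimmest probe set of each was -0.09. Tie1 minus Tek passed no longer with quantile normalization (0.23, adjusted p = 0.129) or when a gene's probe sets were averaged (0.21, adjusted p = 0.0857), and Flt1 minus Kdr likewise (0.38 and 0.18, both adjusted p = 0.0857). Leaving out 1 heart gave 0.16 to 0.25 for Tie1 minus Tek, 0.28 to 0.47 for Flt1 minus Kdr and -0.60 to -0.18 for Angpt2 minus Angpt1. Under a pairing by replicate number, sign flips gave 0.21 and 0.37 with adjusted p = 0.188 for both receptor pairs. With 4 pairs of hearts no exact p under 0.125 is possible, so that test says nothing of stability.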
